A study of Mus musculus with 18 samples.

Results

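The genes described here are 5 genes of Hedgehog signalling: the transcription factor genes Gli1, Gli2 and Gli3, and Ptch1 and Hhip, which encode the receptor and the decoy of its negative feedback. They were taken by symbol from a table of raw read counts with 23337 genes, and all 5 of 5 were found there and passed the filter on low counts, as did 14892 genes in all. The cells were mouse embryonic stem cells of strain A2Lox.cre, cell line GLI1-FTA, differentiated toward cardiomyocytes, and the measurement was polyA RNA sequencing of 18 libraries. The untreated controls comprise 4 libraries of D5, 3 of D6, 2 of D8 and 2 of D12. For GLI1 overexpression (OE), 500 ng/ml doxycycline was present over the 24 hours that separate D5 from D6 and was then washed out. These cells gave 3 libraries of D6, 2 of D8 and 2 of D12. Cells of D5 and D6 are labelled as cardiac progenitors and those of D8 and D12 as cardiomyocytes, and all groups share the cell line. No group received doxycycline without induction of GLI1, so the drug and the induced factor cannot be told apart. The labels give neither the species of the induced GLI1 copy nor whether its reads fall on the Gli1 row, and they do not say whether replicates were separate cultures. A p-value here therefore covers the spread from library to library only, and that spread may be technical.

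In the Hedgehog pathway a secreted ligand binds the receptor PTCH1, which otherwise holds the membrane protein SMO inactive. Active SMO lets the GLI factors act in the nucleus: GLI2 is mainly an activator, GLI3 is mainly a repressor when the pathway is off, and GLI1, itself switched on by the pathway, is an activator. Among the genes that the GLI activators switch on are Ptch1 and Hhip, whose membrane proteins bind ligand and so damp the signal. In the embryo, Hedgehog signalling acts on the second heart field, the progenitor pool that extends the heart tube.

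The genes lie on GRCm38 as annotated by GENCODE M21: Gli1 at chr10:127329882-127341974 on the minus strand, Gli2 at chr1:118834132-119053619 on the minus strand, Gli3 at chr13:15463235-15730026 on the plus strand, Ptch1 at chr13:63508328-63573598 on the minus strand and Hhip at chr8:79965851-80058006 on the minus strand. Because the 3 GLI genes are paralogs and the reads were 50 bases long, shared sequence matters for telling them apart. The stretch of coding sequence that encodes the 5 zinc fingers, the DNA-binding part, was 81.5% identical in bases between Gli1 and Gli2, 75.9% between Gli1 and Gli3 and 80.8% between Gli2 and Gli3, against 49.7%, 47.2% and 54.2% over the rest of the aligned coding sequence. The 60 coding bases with the closest match among the 3 genes are shown to let the paralogs be compared where they are hardest to separate, with the 9 positions that are not shared by all 3 in capitals.
Gli1: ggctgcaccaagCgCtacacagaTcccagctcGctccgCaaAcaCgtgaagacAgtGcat
Gli2: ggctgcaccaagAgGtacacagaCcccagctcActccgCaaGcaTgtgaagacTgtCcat
Gli3: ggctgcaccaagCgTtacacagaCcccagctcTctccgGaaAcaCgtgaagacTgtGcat
No stretch of 50 bases in the annotated transcripts was common to any pair of the GLI genes. Some 50-base stretches were shared with other genes: 231 of 5123 for Gli1 (with Arhgap9 and Gm47200), 126 of 9589 for Gli3 (with Gm6556), 126 of 9073 for Hhip (with Gm27820), 50 of 14498 for Ptch1 (with several genes) and 0 of 7138 for Gli2. The partners of Gli1, Gli3 and Hhip overlap them on the opposite strand, and since the use of strand in counting is not given in the sources used here, reads from those overlaps are uncertain.

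Ptch1 and Hhip both rose at D6 in the values given further on, so the 250 bases before their RefSeq start sites (assembly GRCm38.p6) are printed. They were searched on both strands for GACCACCCA, the 9-base consensus of GLI binding. The capitals mark the closest match, or the first found where several are equally close, as in Ptch1. The Ptch1 stretch is chr13:63565736-63565985 and the Hhip stretch chr8:80058009-80058258, both read along the minus strand. The Ptch1 stretch lies inside the gene span given above, which extends further upstream.
Ptch1: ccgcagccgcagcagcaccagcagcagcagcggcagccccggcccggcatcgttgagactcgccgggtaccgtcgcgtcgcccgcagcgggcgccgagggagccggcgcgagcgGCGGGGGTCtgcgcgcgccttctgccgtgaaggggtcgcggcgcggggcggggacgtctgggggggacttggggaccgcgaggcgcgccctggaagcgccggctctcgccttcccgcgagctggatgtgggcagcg
Hhip: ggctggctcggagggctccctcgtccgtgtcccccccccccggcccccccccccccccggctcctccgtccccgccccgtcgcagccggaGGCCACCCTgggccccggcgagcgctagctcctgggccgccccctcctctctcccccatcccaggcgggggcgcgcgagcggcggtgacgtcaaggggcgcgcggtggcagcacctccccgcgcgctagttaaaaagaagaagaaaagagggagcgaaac
Windows of 300 bases around the start site were at hand for 4 of the 5 genes (Gli2, Gli3, Ptch1 and Hhip), and none held the full consensus, which 0.253% of 32851 such windows hold. The closest match had 2 mismatches in Hhip and in Gli2 and 3 in Ptch1 and in Gli3. Of all windows, 58.3% hold a match with at most 2 mismatches and 99.4% one with at most 3. These matches describe the letters of the windows and say nothing about binding.

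Total counts ranged from 18470785 to 26184339 per library. D5 libraries 1 and 2 lay closer to each other than to the rest of their group: the mean chi-square per gene between them was 6.85, against 50.5 to 93.7 for the other D5 pairs. They were kept as separate samples, and the D5 comparisons of the 5 genes that moved without them are given both ways. Counts were scaled to library size as CPM, with the trimmed mean of M-values (TMM), and group levels are CPM as mean ± SD. All 14 cardiomyocyte markers had counts in each of the 18 libraries. All 13 markers of cardiac progenitors and second heart field had counts in each D5 and D6 library, and also in both D8 controls and D8 GLI1 OE library 18. The 8 endothelial markers and the 8 smooth muscle and fibroblast markers had counts in each of the 18 libraries too, so this does not single out cardiac cells. Differences were tested with edgeR's quasi-likelihood model with Benjamini-Hochberg adjustment over all 14892 genes, given as log2 fold change ± standard error (SE), and called at an adjusted p under 0.05.

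**Figure D1:**
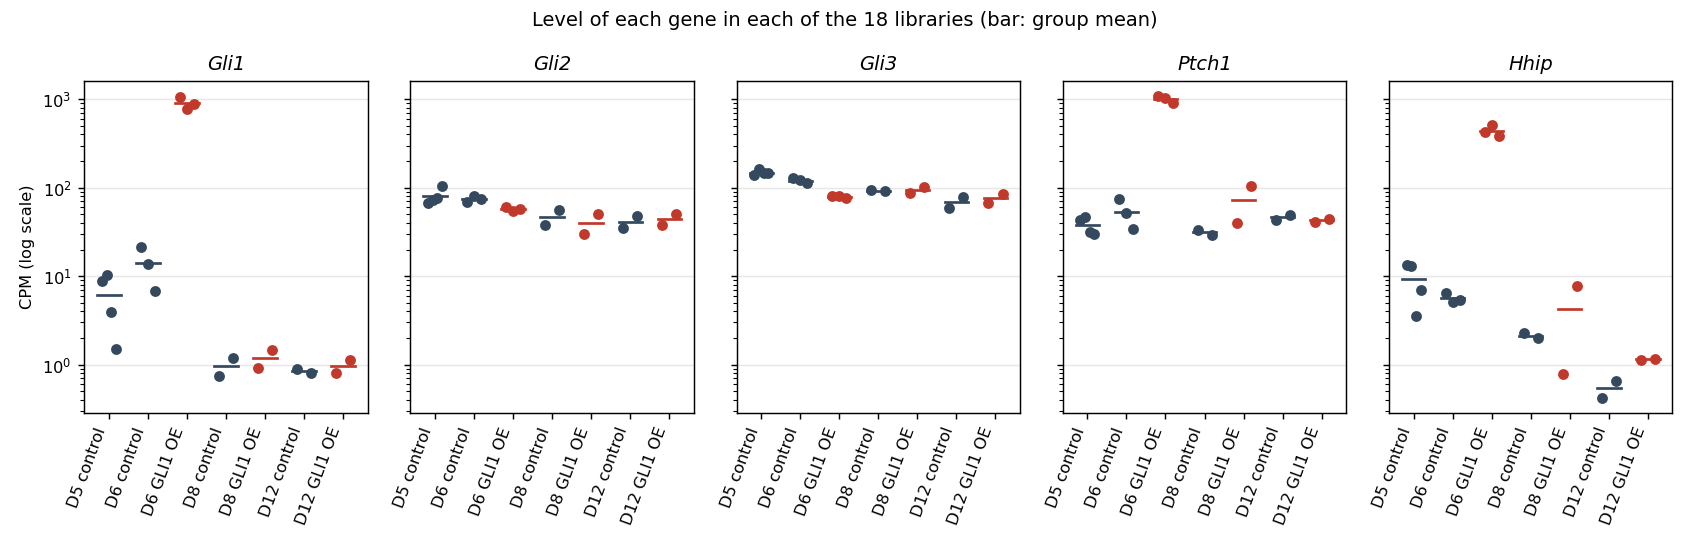
CPM (log axis) of each gene in each of the 18 libraries, with 1 point per library and a bar at the group mean; controls are dark and GLI1 OE red. Gli1, Ptch1 and Hhip stand far above every other group in the 3 D6 GLI1 OE libraries, while Gli2 and Gli3 stay within a range of 2.17-fold across the group means.

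Over the 7 groups, Gli1 spanned the widest range and the other GLI factors the narrowest. The highest group mean was 1063-fold the lowest for Gli1, 817-fold for Hhip, 32.1-fold for Ptch1, 2.17-fold for Gli3 and 1.99-fold for Gli2. For Gli1, Ptch1 and Hhip the highest group was D6 GLI1 OE, and for Gli2 and Gli3 it was the D5 controls.

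Gli1, which encodes the induced factor and is itself a target of the pathway, rose at the end of the pulse. The D6 controls held 21.4, 13.7 and 6.84 CPM (libraries 11, 15 and 3), and the D6 GLI1 OE libraries 1051, 785 and 891 CPM (libraries 12, 16 and 4). The lowest induced library thus lay far above the highest control, and each induced library was between 56.1 and 75.1 times the mean of the controls. The difference was 6.02 ± 0.59 (edgeR, adjusted p = 4.31e-05). By D8 the high level was gone from both libraries given the pulse: 0.925 and 1.45 CPM (libraries 14 and 18) against 0.752 and 1.18 CPM in the controls (libraries 13 and 17), from 17 to 32 counts per library. At D12 the levels were 0.795 and 1.12 CPM after the pulse and 0.902 and 0.808 CPM in the controls. The groups overlapped at both later days, so after washout the level of Gli1 does not check which libraries had been induced.

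In the controls, Gli1 followed the course of differentiation. It stood at 6.15 ± 4.14 CPM at D5 (SD, n = 4), 14.0 ± 7.28 at D6 (n = 3), 0.964 ± 0.300 at D8 (n = 2) and 0.855 ± 0.0660 at D12 (n = 2). From D6 to D8 it fell by 3.85 ± 0.73 on the log2 scale (edgeR, adjusted p = 0.00149), and the groups did not overlap. The change from D5 to D6 was 1.18 ± 0.47 (adjusted p = 0.101), with overlapping groups: D5 libraries 1 and 2 held 8.78 and 10.4 CPM, and libraries 3 and 4 held 3.90 and 1.52 CPM. Without libraries 1 and 2, an alternative chosen after seeing the data, that change was 2.36 ± 0.46 (adjusted p = 0.00544), and without library 2 alone it was 1.56 ± 0.49 (adjusted p = 0.0479). Libraries 1 and 2 also differed in other cells' markers: 7 blood markers summed to 4.43 and 5.76 CPM there against 239 and 66.9 CPM in libraries 3 and 4, and 8 smooth muscle and fibroblast markers to 6494 and 7127 CPM against 3283 and 3086 CPM. The part of these markers in the Gli1 difference was not tested.

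Ptch1, the receptor gene, rose with Gli1 at D6. The controls held 73.8, 51.2 and 34.5 CPM (libraries 11, 15 and 3) and the GLI1 OE libraries 1087, 1044 and 899 CPM (libraries 12, 16 and 4). Every induced library was between 16.9 and 20.4 times the mean of the controls. The difference was 4.25 ± 0.35 (edgeR, adjusted p = 1.53e-05). Among the controls Ptch1 kept the order of Gli1, highest in library 11 and lowest in library 3. Among the GLI1 OE libraries it did not: both were highest in library 12, but Gli1 was lowest in library 16 and Ptch1 in library 4. By the level reached in the induced cells, Ptch1 ranked 45 of 14892 genes in CPM.

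Hhip, the decoy receptor gene, rose about as far as Gli1 at D6. It stood at 6.51, 5.14 and 5.40 CPM in the controls (libraries 11, 15 and 3) and at 426, 512 and 386 CPM in the GLI1 OE libraries (libraries 12, 16 and 4). Each induced library was between 68.0 and 90.1 times the mean of the controls. The difference was 6.28 ± 0.63 (edgeR, adjusted p = 5.01e-05), which ranked 40 among 14892 genes ordered from the largest rise, with Gli1 at 43 and Ptch1 at 99. The order of the induced libraries was not that of Gli1: Hhip was highest in library 16, where Gli1 was lowest.

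Gli3, the factor that mainly gives the repressor, fell at D6. It held 127, 121 and 113 CPM in the controls (libraries 11, 15 and 3) and 81.5, 81.0 and 76.2 CPM in the GLI1 OE libraries (libraries 12, 16 and 4). The groups did not overlap, and the change was −0.60 ± 0.11 (edgeR, adjusted p = 0.00717). In bulk RNA, fewer cells that express the gene and less RNA per cell cannot be told apart. Gli2 lay lower in the same libraries, at 59.9, 54.1 and 56.9 CPM against 69.4, 80.1 and 75.5 CPM, also without overlap, but did not pass the test (−0.40 ± 0.22, edgeR, adjusted p = 0.42). With a model fitted to the 6 libraries compared alone, Gli2 passed it (−0.39 ± 0.08, adjusted p = 0.0336). Separation of this kind was common, since 13.8% of genes tested had all D6 GLI1 OE libraries below all controls and 13.2% had them above.

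At D6, therefore, 4 of the 5 genes passed the test, 3 higher and 1 lower, where the share over all genes was 4.14% (3.02% higher and 1.12% lower). Among them is Gli1, the gene of the induced factor, so its call cannot be told apart from the induction itself. The same holds for its calls against the D5 controls and after washout. The authors' deposited table for D6 gives log2 fold changes of 6.03 for Gli1, 4.25 for Ptch1, 6.29 for Hhip, −0.59 for Gli3 and −0.39 for Gli2. All 5 are listed among the authors' 1652 called genes, with an adjusted p of 0.0034 for Gli2 in the authors' deposited table. What share of all genes that list makes up was not computed. Against the D5 controls, from which the pulse began, the D6 GLI1 OE libraries gave 4 calls of 5 (29.5% of all genes): 7.20 ± 0.55 for Gli1, 4.74 ± 0.32 for Ptch1, 5.58 ± 0.54 for Hhip and −0.90 ± 0.11 for Gli3. Gli2 was at −0.49 ± 0.20 (edgeR, adjusted p = 0.0911). Without D5 libraries 1 and 2 the same 4 genes passed, at 8.40 ± 0.58 for Gli1, 5.05 ± 0.44 for Ptch1, 6.40 ± 0.68 for Hhip and −0.88 ± 0.13 for Gli3.

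Summed levels of some marker lists differed between the D6 groups, with few members called. Of all genes, 4.14% were called at D6 (3.02% higher and 1.12% lower). The share at an unadjusted p under 0.05 is at least that, and its full size is not given here. Counts of markers at that threshold are therefore not read as an excess. The 11 endoderm markers summed to between 112 and 134 CPM in the GLI1 OE libraries and to between 13.5 and 16.4 CPM in the controls, of which Foxa2, also a Hedgehog target, made up 97.6 ± 13.3 CPM (SD, n = 3) after the pulse. Of the 10 tested, 2 rose and none fell. Between 0 and 2 of these markers were at 0 in a control and none was in an induced library. The 14 cardiomyocyte markers summed to between 2315 and 5660 CPM after the pulse and to between 6026 and 12527 CPM without it, with 0 of 14 called and 5 of 14 at an unadjusted p under 0.05 in edgeR. The 7 pluripotency markers summed to between 17.0 and 20.5 CPM against between 38.2 and 46.7 CPM, and the 8 smooth muscle and fibroblast markers to between 2373 and 4560 CPM against between 4747 and 6485 CPM, with 0 of 5 and 0 of 8 tested members called. At an unadjusted p under 0.05 in edgeR were 2 of the 5 and 0 of the 8. Of the neural markers 2 of 6 tested fell, of the endothelial markers 1 of 8 rose, of the cardiac progenitor and second heart field markers 2 of 13 rose, and of the blood and paraxial mesoderm markers 0 of 6 and 0 of 4 were called (0 of each at an unadjusted p under 0.05 in edgeR). The part of these cells in the differences of the 5 genes was not tested.

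**Figure D2:**
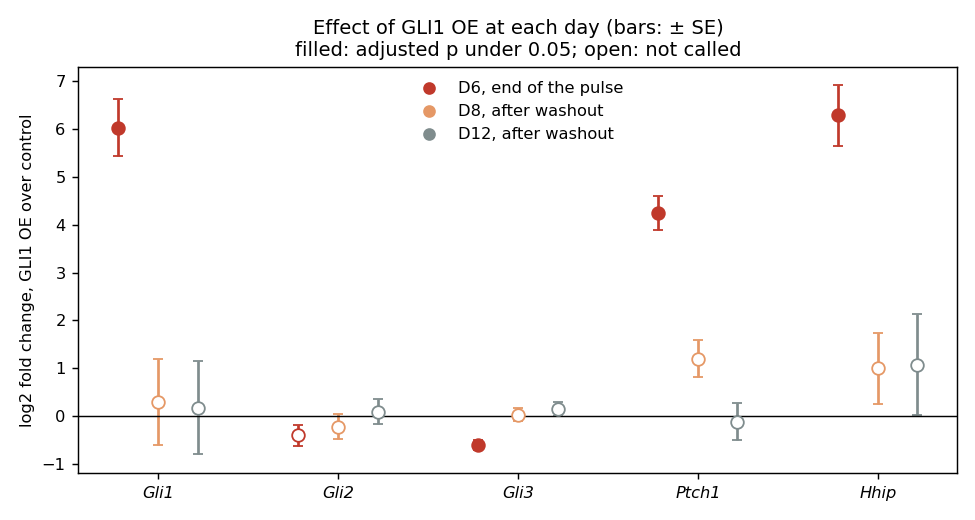
Log2 fold change of GLI1 OE over the control of the same day (y axis) for each gene, with bars of ± 1 SE; filled points passed an adjusted p of 0.05 and open points did not. At D6, 4 of the 5 points are filled, while all points of D8 and D12 are open.

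At D8, after washout, none of the 5 genes passed the test, and neither did any of the 14892 genes in edgeR (0% called), with 886 genes (5.95%) at an unadjusted p under 0.05. DESeq2 called 36 genes at D8 and edgeR without library 14 called 49, none of them among the 5. Ptch1 came closest, at 39.7 and 105 CPM (libraries 14 and 18) against 33.4 and 29.6 CPM in the controls (libraries 13 and 17). Both libraries given the pulse lay above both controls, as for 17% of genes tested, but library 18 held far more than library 14. The difference was 1.20 ± 0.39 (edgeR, unadjusted p = 0.00795, adjusted p = 0.698). It was 0.34 without library 18 and 1.72 without library 14. Hhip split the same way, at 0.787 CPM in library 14 and 7.72 CPM in library 18, with controls at 2.26 and 2.005 CPM between them. Its difference of 1.00 ± 0.74 (adjusted p = 0.901) became −1.43 without library 18. Gli1, Gli2 and Gli3 gave 0.30 ± 0.89, −0.22 ± 0.27 and 0.04 ± 0.14, with overlapping groups.

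Library 18 stood apart from library 14 in other genes as well. Its 14 cardiomyocyte markers summed to 1908 CPM, against 15137 CPM in library 14 and 8375 and 17576 CPM in the controls. Its 11 endoderm markers summed to 23.7 CPM against 5.88 CPM in library 14, and its 8 paraxial mesoderm markers to 53.4 CPM against 18.7 CPM. Foxa2 had 204 counts in library 18, 5 in library 14 and 2 in each control. The Gli1 level did not separate these libraries, since 32 and 20 counts were found there. The part of these markers in the Ptch1 and Hhip values of library 18 was not tested.

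At D12 the 5 genes again gave no call, with 0% of all genes called by edgeR, 840 genes (5.64%) at an unadjusted p under 0.05, 14 genes called by DESeq2, 1 by limma-voom and 5 by edgeR without GLI1 OE library 10, none of them among the 5. Hhip held 1.14 and 1.16 CPM after the pulse (libraries 10 and 20) and 0.424 and 0.657 CPM in the controls (libraries 19 and 9), from 8 to 26 counts per library. The groups did not overlap, as for 17.9% of genes tested in that direction, and the difference was 1.08 ± 1.05 (edgeR, adjusted p = 0.971). Ptch1 was at 41.5 and 44.6 CPM after the pulse and 43.5 and 49.6 CPM in the controls, a difference of −0.11 ± 0.38. Gli2 and Gli3 differed by 0.10 ± 0.27 and 0.16 ± 0.14. Library 20 stood apart from library 10 in some marker lists. Its 11 endoderm markers summed to 31.7 CPM against 11.4 CPM, with controls at 13.9 and 10.6 CPM. Its 8 paraxial mesoderm markers summed to 76.8 CPM against 21.1 CPM, with controls at 17.6 and 19.3 CPM. Its 14 cardiomyocyte markers summed to 4349 CPM against 8915 CPM, and the other lists were closer. The part of these markers in the 5 genes was not tested. In the authors' deposited tables for D8 and D12, the lists of 11 and 74 called genes hold 0 of the 5. The authors' D12 values do not include Hhip, so its absence from that list is no negative result. What share of all genes those lists make up was not computed.

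**Figure D3:**
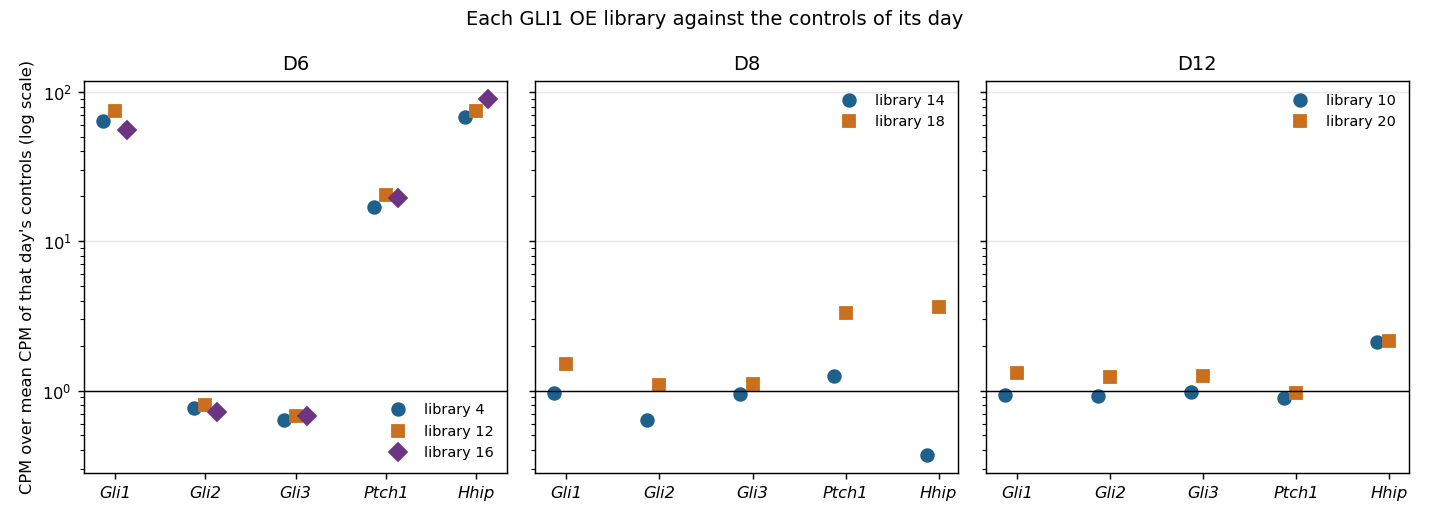
CPM of each GLI1 OE library divided by the mean CPM of the controls of the same day (log axis), for D6, D8 and D12, with 1 symbol per library and a line at no difference. At D6 the 3 libraries lie close together for each gene; at D8 library 18 is 3.32 times the controls for Ptch1 and 3.62 times for Hhip, where library 14 is at 1.26 and 0.369 times.

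The change between days was tested as the difference between effects. The effect at D8 minus the effect at D6 was −3.05 ± 0.50 on the log2 scale for Ptch1 (edgeR, adjusted p = 0.0112), −5.28 ± 0.94 for Hhip (adjusted p = 0.0189) and −5.72 ± 1.08 for Gli1 (adjusted p = 0.0277), so 3 of 5 genes passed where 0.631% of all genes did. The effect at D12 minus that at D6 was −4.36 ± 0.51 for Ptch1 (edgeR, adjusted p = 0.00194) and −5.84 ± 1.18 for Gli1 (adjusted p = 0.0415). Here 2 of 5 passed where 0.604% of all genes did. Both counts include Gli1, the gene of the induced factor, and at D12 Ptch1 was the only other gene of the 5 to pass. Hhip had a difference of −5.20 ± 1.36 at D12 (adjusted p = 0.151). For Gli3 the differences were 0.64 ± 0.18 at D8 (adjusted p = 0.212) and 0.76 ± 0.18 at D12 (adjusted p = 0.0996). With adjacent library numbers of a day as a replicate block, the Gli1 calls were lost (edgeR, adjusted p = 0.0838 for D8 and 0.109 for D12). Adjacent D12 libraries did not deviate together over genes (r = −0.23), so the block may not pair them. The Gli1 calls were also lost with limma-voom (adjusted p = 0.0789 and 0.106). With only the groups compared in the fit, the calls of Ptch1 and Hhip at D8 were lost (edgeR, adjusted p = 0.0661 and 0.0508), while Gli1 passed (0.0208), and Hhip passed at D12 (0.000801). Leaving out single libraries ended further calls. For D8, Gli1 no longer passed when D6 control library 15, D6 GLI1 OE library 12 or any 1 of the 4 D8 libraries was removed. Hhip no longer passed at D8 on removal of library 3 or 15 of the D6 controls or of either D8 control, and Ptch1 on removal of D8 control library 13 (edgeR, adjusted p = 0.0529). For D12, Gli1 failed the test on removal of library 3 or 15 of the D6 controls, any 1 of the 3 D6 GLI1 OE libraries or any 1 of the 4 D12 libraries, with adjusted p up to 0.289. Gli3 passed for D12 without D12 control library 9 (0.99 ± 0.18, edgeR, adjusted p = 0.0355), and DESeq2 called Gli3 and Hhip there (adjusted p = 0.0167 and 6.94e-06). The Ptch1 difference at D12 passed under all 17 alternatives, with adjusted p up to 0.031.

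Within the libraries given the pulse, the fall from D6 to D8 took in the same 3 genes. The changes were −9.57 ± 0.86 for Gli1 (edgeR, adjusted p = 1.06e-05), −6.69 ± 0.78 for Hhip (adjusted p = 4.42e-05) and −3.81 ± 0.41 for Ptch1 (adjusted p = 2.44e-05), which made 3 calls of 5 where 40.1% of all genes were called (19.8% lower), without overlap in each case (30.7% of genes). Gli3 did not pass, at 0.26 ± 0.13 (adjusted p = 0.122), and its D8 libraries at 88.2 and 102 CPM lay above all 3 D6 GLI1 OE libraries, as for 29.8% of genes. From D8 to D12, 0 of the 5 genes passed where 33.5% of all genes did. DESeq2 called Hhip alone in that step, and 2 of the 5, Gli3 and Hhip, were at an unadjusted p under 0.05 in edgeR (adjusted p = 0.094 and 0.0875). Of all genes, at least the 33.5% called in that step were under 0.05 before adjustment, and the full share is not given here. Without D8 GLI1 OE library 14, Ptch1 (−1.25 ± 0.34, adjusted p = 0.016) and Hhip (−2.71 ± 0.61, adjusted p = 0.00617) passed there, as did Gli3 without D12 GLI1 OE library 20 (−0.46 ± 0.16, adjusted p = 0.0469). For D6 to D8, Gli2 passed without D8 GLI1 OE library 18 (−0.93 ± 0.28, edgeR, adjusted p = 0.0213).

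In the controls, the mean of Gli3 was lower at each later day, while Gli2 was called lower from D6 to D8 alone. Gli2 libraries lay between 66.6 and 104 CPM at D5 and between 69.4 and 80.1 at D6. They lay between 37.4 and 55.9 CPM at D8 and between 35.2 and 47.6 at D12. Its other changes were not called and had overlapping groups: −0.09 from D5 to D6 (edgeR, adjusted p = 0.807) and −0.17 from D8 to D12 (adjusted p = 0.644). Gli3 stood at 148 ± 9.0 CPM at D5, 121 ± 7.09 at D6, 92.7 ± 2.02 at D8 and 68.3 ± 14.2 at D12. From D5 to D6 none of the 5 genes passed (18.4% of all genes did), and Gli3 was at −0.30 ± 0.11 (edgeR, unadjusted p = 0.0139, adjusted p = 0.0672), with no overlap, as for 15.2% of genes in that direction. Gli1 and Gli3 were the 2 of the 5 at an unadjusted p under 0.05 in that step. At least the 18.4% of all genes called were too, and the full share is not given here. DESeq2 called Gli3 alone (adjusted p = 0.0498). From D6 to D8, 3 of the 5 passed where 34.8% of all genes did, and all 3 were lower (17.5% of all genes): Gli1, Gli2 (−0.68 ± 0.25, adjusted p = 0.0451) and Gli3 (−0.38 ± 0.13, adjusted p = 0.0349). From D8 to D12, Gli3 alone passed (−0.44 ± 0.14, adjusted p = 0.0251), so 1 of 5 against 36.3% of all genes (19.4% lower). These calls of Gli2 and Gli3 lie near the threshold. For D6 to D8, the Gli2 call was lost on leaving out any 1 of the 3 D6 controls or D8 control library 13, and the Gli3 call on leaving out D6 control library 11 or 15 or either D8 control, with adjusted p up to 0.329 and 0.13. For D8 to D12, the Gli3 call was lost on leaving out either D8 control or D12 control library 19, with adjusted p up to 0.249, and with only the groups compared in the fit (edgeR, adjusted p = 0.0963).

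The feedback genes in the controls gave no call between days. Ptch1 stood at 37.8 ± 8.42 CPM at D5, 53.2 ± 19.7 at D6, 31.5 ± 2.75 at D8 and 46.6 ± 4.25 at D12, so that it was still present in the cells labelled as cardiomyocytes when Gli1 was at or under 1.18 CPM. Its D6 to D8 change was −0.76 ± 0.36 (edgeR, adjusted p = 0.114) and its D8 to D12 change 0.56 ± 0.38 (adjusted p = 0.268), both without overlap, as for 32.1% and 34.7% of genes in those directions. Hhip was at 9.19 ± 4.78, 5.68 ± 0.730, 2.13 ± 0.177 and 0.541 ± 0.164 CPM at the 4 days. Its changes were −1.41 ± 0.68 from D6 to D8 (adjusted p = 0.121) and −1.96 ± 0.96 from D8 to D12 (adjusted p = 0.126), also without overlap (32.1% and 37.7% of genes). Calls came with other settings: with only the groups compared in the fit, Hhip passed in both steps (edgeR, adjusted p = 0.00903 and 0.0248) and Ptch1 from D8 to D12 (0.0296). Ptch1 also passed from D6 to D8 without D6 control library 3 (edgeR, adjusted p = 0.0482). Like Gli1, Ptch1 and Hhip were higher in D5 libraries 1 and 2 (43.7 and 46.3 CPM for Ptch1, 13.2 and 13.1 CPM for Hhip) than in libraries 3 and 4 (31.3 and 29.8 CPM, 3.52 and 6.92 CPM). The D5 to D6 change of Hhip, −0.69 ± 0.51, became 0.11 ± 0.56 without those libraries, and that of Ptch1 went from 0.49 to 0.79, neither of them called.

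Ordered by level, few neighbouring groups were apart. For Gli1 the 4 groups of D8 and D12 overlapped one another in order, the D5 controls lay above them without overlap, the D6 controls overlapped the D5 controls, and D6 GLI1 OE lay above all. For Ptch1 the 6 groups below D6 GLI1 OE each overlapped the next. For Hhip, the D12 controls lay apart from D12 GLI1 OE, and those from the D8 controls. From there up to the D5 controls each group overlapped the next, and D6 GLI1 OE lay above them. For Gli2 the gap between D6 GLI1 OE and the D6 controls was the one place without overlap. For Gli3 the gaps lay between D6 GLI1 OE and D8 controls, between D8 GLI1 OE and D6 controls, and between D6 and D5 controls.

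To set the 3 GLI factors against each other, levels were put on a per-length scale with the authors' deposited TPM values of the 4 D5 controls. On that TPM scale the D5 controls held 38.8 ± 2.71 for Gli3, 26.02 ± 5.33 for Gli2 and 3.69 ± 2.39 for Gli1 (SD, n = 4), with 19.1 ± 4.38 for Ptch1 and 2.23 ± 1.16 for Hhip. As a share of the 3 GLI levels per length, Gli3 made up 56.7% ± 3.09, Gli2 37.9% ± 6.20 and Gli1 5.45% ± 3.64 at D5 (SD, n = 4). At D6 the controls gave 49.0% ± 1.52, 38.3% ± 4.82 and 12.7% ± 5.82 (n = 3), each gene scaled by its own D5 ratio of TPM to CPM. After the pulse Gli1 made up 93.2% ± 0.769, Gli3 3.60% ± 0.501 and Gli2 3.20% ± 0.277 (n = 3). At D8 and D12 the share of Gli1 was between 1.21% and 1.99% in all 8 libraries, and Gli3 was the largest of the 3 in each of these groups. An induced transcript of another length than the D5 one would shift the D6 share, and its length is not given in the labels.

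**Figure D4:**
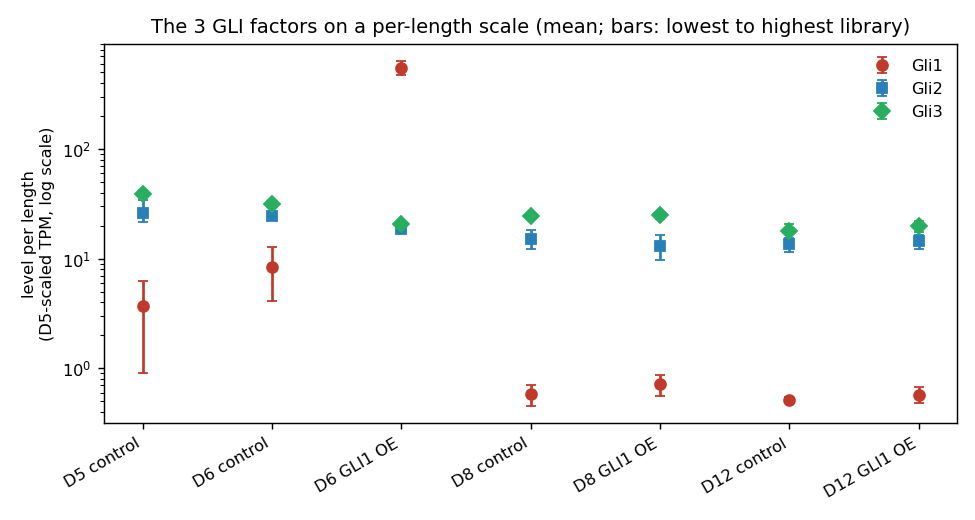
Level per length of Gli1, Gli2 and Gli3 in the 7 groups (TPM scaled from the D5 controls, log axis), with the mean as a symbol and bars from the lowest to the highest library. Gli1 is the lowest of the 3 in every group other than D6 GLI1 OE, where it is the highest at 93.2% of the sum.

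Other target genes of the pathway, 24 from textbook knowledge, were followed at D6. The list was chosen with earlier results of these data known, so its counts are a description and not an independent test. Of the 23 that passed the filter, 10 rose (3.02% of all genes did), none fell (1.12% did) and 13 did not pass the test. The median log2 fold change was 0.93, against −0.02 over all genes. Foxl1, a forkhead factor gene of the gut mesenchyme, rose by 6.51 ± 0.50 (edgeR, adjusted p = 6.7e-06) and was highest in library 16, as Hhip was. Foxa2, a forkhead factor gene of endoderm and floor plate, rose by 7.43 ± 0.97 (adjusted p = 0.00042), from 0.567 ± 0.278 to 97.6 ± 13.3 CPM. Hsd11b2, a steroid dehydrogenase gene, rose by 2.81 ± 0.37 (adjusted p = 0.000443). Nkx2-2 did not pass the filter, with 22 counts in all libraries together. The count of 10 fell to between 5 and 9 when single D6 libraries were left out: it was 6 without control library 3 or 15 and 5 without GLI1 OE library 16. At D8 and D12 edgeR called 0 of the 23. At an unadjusted p under 0.05 in edgeR were 7 and 5 (5.95% and 5.64% of all genes). The medians were 0.50 and 0.60, against 0.0067 and −0.0038 over all genes. Single libraries weighed on some of these values. At D8 Foxa2 had 204 counts in library 18 and 5 in library 14, and Foxl1 120 and 62. At D12 Foxa2 had 32 counts in GLI1 OE library 20 and 3 in library 10.

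**Figure D5:**
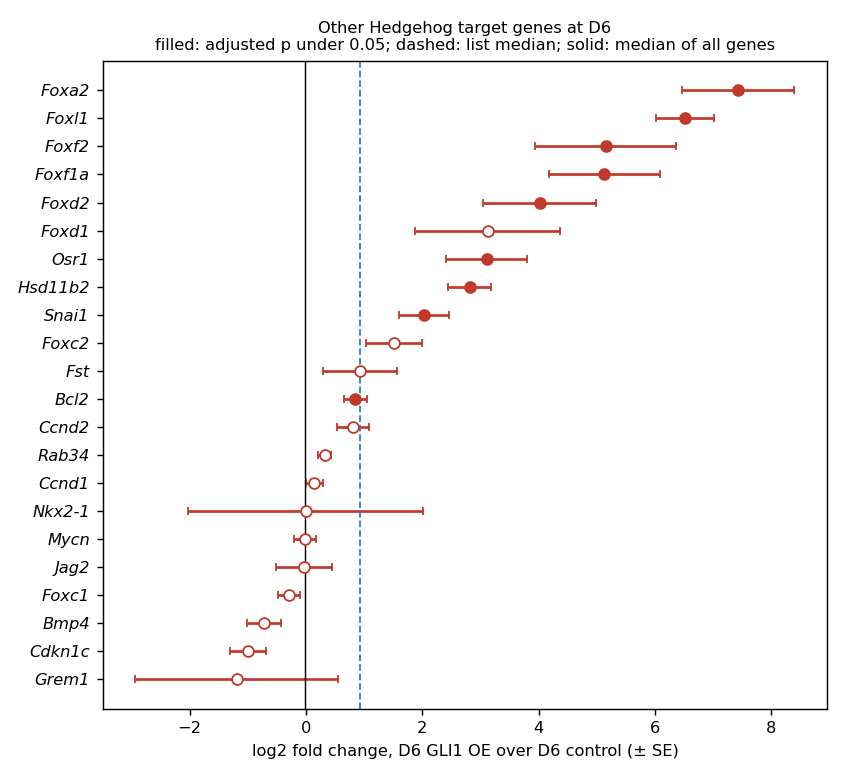
Log2 fold change at D6 (x axis, with bars of ± 1 SE) of 22 of the 23 other Hedgehog target genes that passed the filter; filled points passed an adjusted p of 0.05. The 9 filled points all lie to the right of 0, and the dashed line marks the median of 0.93 over the list of 23.

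Genes upstream of the GLI factors were followed in the same way. Of 32 ligands, co-receptors, transducers and cilium genes, 31 were in the table and 29 passed the filter. At D6, 0 rose, 1 fell and 28 did not pass, against 4.14% called over all genes, with a median of 0.00. The one that fell was Gas1, which encodes a co-receptor for the ligand: it held 44.4, 42.8 and 42.7 CPM in the controls (libraries 11, 15 and 3) and 19.0, 16.2 and 19.5 CPM in the GLI1 OE libraries (libraries 12, 16 and 4), a difference of −1.25 ± 0.25 (edgeR, adjusted p = 0.0103). Without GLI1 OE library 16 that call was lost. The next by p were Mgrn1, a ubiquitin ligase gene, at −0.52 ± 0.14 (adjusted p = 0.0504), Scube2, whose product helps release the ligand, at −2.19 ± 0.73 (adjusted p = 0.13), and Efcab7, a gene of the ciliary base, at 0.49 ± 0.20 (adjusted p = 0.233). The ligand genes Ihh and Dhh did not pass the filter, with 42 and 95 counts over all 18 libraries.

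The genes whose log2 CPM followed each member most closely over the 18 libraries are given as a description, since the libraries share days and conditions and 3 of them carry the pulse. For Gli1 they were Bcar3 (Pearson r = 0.96), Hhip (0.95), Pwp1 (0.95), Nrd1 (0.95) and Adcy7 (0.95). For Ptch1 they were Ntng1 (0.97), Hapln3 (0.97), Eps8l2 (0.94), Fxyd6 (0.94) and Exoc2 (0.93), and for Hhip Nrd1 (0.96), Rab11fip4 (0.95), Gli1 (0.95) and Aco1 (0.94). For Gli2 they were Slc22a23 (0.92), Gpatch1 (0.90), Svep1 (0.89) and Pcgf6 (0.89). For Gli3 they were Rasef (0.92), Zdbf2 (0.91), Amot (0.91), Garnl3 (0.91) and Aebp2 (0.90). Over the 15 libraries without D6 GLI1 OE, r of the genes named was lower for Ptch1 (0.34 to 0.70), Gli1 (0.68 to 0.89) and Hhip (0.74 to 0.84). It stayed at 0.90 to 0.93 for Gli2 and 0.89 to 0.95 for Gli3. Among the 5 genes themselves, Gli1 and Ptch1 had r = 0.90 over 18 libraries and 0.25 over the 15 without D6 GLI1 OE. Ptch1 and Hhip had 0.89 and 0.21 in the same way, and Gli1 and Hhip 0.95 and 0.74. Gli3 and Hhip had 0.06 over the 18 libraries and 0.88 over those 15, in which both were lower at the later days.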

How the data were processed

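The tests used the raw read counts that the authors deposited by gene symbol, with 1 column for each of 18 libraries. Per the labels, sequencing gave stranded single-end reads of 50 bases from TruSeq libraries. Aligner, counter and genome build: not given in the sources used here. Deposited TPM values of the D5 controls served to scale levels per length. Deposited log2 fold changes and deposited p-values were only quoted beside the values computed here, and the deposited signal (mean of normalized counts) and deposited test score of the D6 table entered nothing. Count columns carry library numbers but no replicate numbers, so a library is named by its group and number.

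The model was fitted with edgeR 4.0.16 under R 4.3.3 (filterByExpr with a minimum count of 10, TMM, robust quasi-likelihood model with 1 coefficient for each of 7 groups). Alternatives used DESeq2 1.42.0 and limma 3.58.1. CPM were computed here. At D6, adjacent library numbers deviated together from their group means over genes (r = 0.62, 0.45 and 0.52), so a replicate block was an alternative. This pairing comes from the column names, not the labels. Adjacent numbers gave r = 0.49 at D8 but −0.23 at D12, where the crossed pairs gave 0.23. The block of adjacent numbers may therefore not pair the D12 libraries. The edgeR fit was tested on simulated data. Genes outside the members were named as the 4 of each list with the smallest p at D6, and the 5 genes with the highest r. Values of 2 genes that this rule names are not reported here. Members and lists were chosen with earlier results of these data known.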

Additional observations from a re-analysis of the deposited data

Results flagged for a closer look

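The effect of GLI1 OE differed between days, by a test of the difference itself, for 3 of the 5 genes. These include Gli1, the gene of the induced factor. On the log2 scale the D8 effect minus the D6 effect was −5.72 for Gli1, −3.05 for Ptch1 and −5.28 for Hhip, and the D12 effect minus the D6 effect was −5.84 for Gli1 and −4.36 for Ptch1 (edgeR, adjusted p between 0.00194 and 0.0415). Each of these effects was positive in 3 of 3 libraries at D6. No single library was an outlier within the group of 4 D5 controls for any of the 5 genes, and the other groups are too small for that rule.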

How the results depend on the processing

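Leaving out single libraries moved the number of the 5 genes called to between 0 and 1 from D5 to D6, 1 and 3 from D6 to D8 and 0 and 1 from D8 to D12 in controls, 0 and 2 from D8 to D12 after GLI1 OE, 0 and 3 for the D8 minus D6 effect and 1 and 2 for the D12 minus D6 effect; at D6 all 6 such fits kept 4. The target list gave between 5 and 9 calls and the component list between 0 and 1. DESeq2 gave 1 call among the 5 genes from D5 to D6 and 2 from D8 to D12 in controls. After GLI1 OE it gave 1 from D8 to D12. It gave 4 for the D12 minus D6 effect, and 3 in the component list. Over all genes it called 3316, 5907 and 5499 in those steps between days. With only the groups compared, calls among the 5 genes were 5 at D6 and 1 from D5 to D6. In controls they were 4 from D6 to D8 and 2 from D8 to D12. They were 1 and 3 for the D8 and D12 minus D6 effects, and the component list gave 2. Over all genes that fit called 2091 from D5 to D6, 5585 from D6 to D8 and 4916 from D8 to D12 in controls. For the D8 and D12 minus D6 effects it called 96 and 208. Limma-voom gave 2 and 1 for those effects and 2 in the component list. The replicate block of adjacent library numbers also gave 2 and 1. Over all genes, limma-voom called 131 and 125 for those effects and the block 80 and 74. Genes with any count gave 2 from D6 to D8 in controls and 1 for the D12 minus D6 effect, with 4787 and 83 over all genes. The block left the counts of members at D6, D8 and D12 as they were; over all genes at D6 it called 667 against 616, and crossing the D12 numbers, added after seeing the data, called 859 at D6, 1 at D8 and 0 at D12, and Gli3 passed there for the D8 and D12 minus D6 effects (adjusted p = 0.0452 and 0.0213). Over all genes, DESeq2 called 1030 at D6 and a fit to the groups compared 1254, and leaving out 1 library gave between 330 and 458. DESeq2 called 233 and 276 genes for the effects at D8 and D12 minus that at D6, against 94 and 90 in edgeR. From D8 to D12 after GLI1 OE, the fit to the groups compared called 0 genes, against 4985. Without D5 libraries 1 and 2, 1 gene was called from D5 to D6, and Hhip turned from −0.69 to 0.11.

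Uncalled differences changed sign without 1 library. The ranges at D8 were −0.059 to 0.65 for Gli1, −0.65 to 0.097 for Gli2, −0.070 to 0.12 for Gli3 and −1.43 to 1.84 for Hhip. At D12 they were −0.094 to 0.39 for Gli1, −0.12 to 0.33 for Gli2 and −0.027 to 0.38 for Gli3. From D8 to D12 they were −0.44 to 0.20 for Gli1 and −0.42 to 0.17 for Gli2 in controls, and −0.55 to 0.085 for Gli1, −0.16 to 0.59 for Gli2, −1.25 to 0.14 for Ptch1 and −2.71 to 0.56 for Hhip after GLI1 OE. Gli2 ranged from −0.17 to 0.066 from D5 to D6 and from −0.24 to 0.51 for the D8 minus D6 effect. The cause was not tested. Of the other values of single genes, 583 kept direction and side of the threshold, 42 lost a call and 21 gained one. With 2 libraries per group, a group left with 1 was assumed to vary like the others. Gli1 and Hhip had at most 32 and 170 counts per library at D8 and D12, which limits the precision there.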
